A study of Homo sapiens with 6 samples.

Results

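The genes described here are 30 genes of cholesterol and fatty acid synthesis, taken by gene name as a fixed list of pathway enzymes and of the regulators and carriers that serve them. They are 30 of the 19945 genes listed for both cell lines, and all 30 were among the 13265 genes tested, which had a mean of at least 1 CPM over the 6 libraries. CPM is the number of reads of a gene per 1000000 reads assigned to genes in that library. The list holds 7 genes of the mevalonate arm, 11 of the squalene and sterol arm, 5 SREBP regulators and sterol carriers, and 7 genes of fatty acid synthesis and desaturation.

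RNA was sequenced from T24 and UM-UC-3, established human bladder carcinoma lines. After 48 h of treatment each line gave 3 libraries, 1 from cells given a negative control and 1 for each of siRNA-1 and siRNA-2. The treatment protocol amounts to 0.04 OD of siRNA per treatment. T24 grew in RPMI-1640 and UM-UC-3 in DMEM, both with fetal bovine serum and penicillin/streptomycin, so the line and its medium cannot be told apart. The labels do not say whether the negative control was an siRNA, and do not name the siRNA target, whereas the series title and the UM-UC-3 column names give HSF1, the main transcription factor of the heat shock response. The labels name no separate cultures, and p-values therefore reflect the spread between these libraries, which may be technical. In bulk RNA, fewer cells of a kind and less RNA per cell cannot be told apart.

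Library totals ran from 23709089 to 28504833 reads. HSF1 stood at 106, 20.3 and 22.7 CPM in T24 under control, siRNA-1 and siRNA-2 (the order used for all values below) and at 138, 50.3 and 36.5 CPM in those of UM-UC-3. It was thus below the control with both siRNAs in both lines, at 0.191 and 0.213 times the control in T24 and at 0.366 and 0.266 times in UM-UC-3. KRT8 (24.2 to 795 CPM), KRT18 (186 to 335 CPM) and VIM (96.9 to 874 CPM) were present in all 6 libraries, while EPCAM and CDH1 did not exceed 0.211 CPM and the uroplakins UPK1A, UPK1B and UPK2 did not exceed 0.403 CPM. Of the other urothelial markers, PPARG stood at 5.75 to 16.1 CPM in T24 and at 1.36 to 2.42 CPM in UM-UC-3, and GATA3 at up to 0.253 CPM in T24 and 0.99 to 1.16 CPM in UM-UC-3. Summed blood markers reached at most 0.675 CPM and summed adipocyte and hepatocyte markers at most 0.506 CPM. Summed endothelial markers were 1.35, 0.543 and 0.523 CPM in the T24 libraries and 4.40, 3.85 and 2.0 CPM in the others, with KDR at 0. PECAM1 made up most of the UM-UC-3 sums, with 4.08, 3.7 and 1.93 CPM. Its T24 values were 1.18, 0.181 and 0.336 CPM, and only under siRNA-1 did VWF exceed it there (0.289 CPM). Summed fibroblast and muscle markers were 4.89, 3.26 and 5.42 CPM in the T24 libraries and 5.68, 9.57 and 14.8 CPM in the others, where COL1A1 took 2.44, 7.92 and 12.3 CPM and DCN, LUM and DES were at 0, and their part in the results was not tested. Mitochondrially encoded genes took 1.85%, 2.75% and 2.71% of the reads in T24 and 5.78%, 5.74% and 4.70% in UM-UC-3.

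Cholesterol is built from acetyl-CoA through mevalonate, isoprenoid diphosphates, squalene and lanosterol, and fatty acids are built from the same acetyl-CoA. Most of these enzymes are targets of the SREBP transcription factors, the products of SREBF1 and SREBF2. When membrane sterol is low, SCAP escorts the SREBPs from the endoplasmic reticulum to the Golgi, where they are cut into active form, and INSIG1 holds SCAP back when sterol is plentiful. INSIG1 is itself an SREBP target, so its RNA is often read beside that of the enzymes. SREBPs bind sterol regulatory elements together with NF-Y, which binds CCAAT, and SP1, which binds GC boxes.

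Promoters are shown first for 5 genes around which the results below turn. Each is the stretch upstream of the annotated gene start within the RefSeq window of 250 bases before to 50 bases after the start (GRCh38.p14, matched by gene symbol), written 5′ to 3′ on the strand of the gene. Capitals mark CCAAT on either strand (which reads ATTGG on the opposite one) and, in SREBF2, the sterol regulatory element letters TCACNCCAC. INSIG1 lies at chr7:155297628.0-155297775.0 (plus strand), MVD at chr16:88663162.0-88663341.0 (minus strand), MSMO1 at chr4:165327419.0-165327622.0 (plus strand), STARD4 at chr5:111512591.0-111512785.0 (minus strand) and SREBF2 at chr22:41832855.0-41833078.0 (plus strand).
INSIG1: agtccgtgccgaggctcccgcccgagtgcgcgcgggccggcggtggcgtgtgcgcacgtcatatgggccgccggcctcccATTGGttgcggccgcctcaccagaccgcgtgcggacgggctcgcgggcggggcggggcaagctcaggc
MVD: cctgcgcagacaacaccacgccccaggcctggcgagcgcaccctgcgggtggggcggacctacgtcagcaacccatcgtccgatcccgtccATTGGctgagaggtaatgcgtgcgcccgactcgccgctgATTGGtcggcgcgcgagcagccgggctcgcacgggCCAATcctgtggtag
MSMO1: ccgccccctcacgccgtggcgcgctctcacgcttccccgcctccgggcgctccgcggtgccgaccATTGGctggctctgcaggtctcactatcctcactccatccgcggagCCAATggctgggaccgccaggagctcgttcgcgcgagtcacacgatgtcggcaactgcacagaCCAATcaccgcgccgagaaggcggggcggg
STARD4: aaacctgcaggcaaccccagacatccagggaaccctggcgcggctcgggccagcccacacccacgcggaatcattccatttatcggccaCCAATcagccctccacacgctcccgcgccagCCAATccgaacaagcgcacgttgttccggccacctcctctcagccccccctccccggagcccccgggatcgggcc
SREBF2: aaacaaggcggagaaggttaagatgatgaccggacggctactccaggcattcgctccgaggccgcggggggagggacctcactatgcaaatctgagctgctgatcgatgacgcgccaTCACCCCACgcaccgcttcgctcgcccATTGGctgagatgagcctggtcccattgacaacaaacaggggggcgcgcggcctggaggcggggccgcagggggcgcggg
The MVD and MSMO1 stretches hold CCAAT 3 times each, STARD4 holds it 2 times, and INSIG1 and SREBF2 hold it once.

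A promoter was matched for 26 of the 30 genes, with none matched for SQLE, ACAT2, FASN and FDFT1, and the whole windows were searched on both strands. CCAAT was found for 20 of the 26 genes, 76.9%, beside 39.7% of the 27305 genes in the table and 43.6% of the 9963 tested genes with a promoter. The GC box GGGCGG was found for 25 genes, 96.2%, beside 48.3% and 77.7%. The E-box CACGTG was found for 4 genes, 15.4%, beside 8.77% and 12.6%. The letters TCACNCCAC were found for 1 gene, SREBF2, at position -133 from its start, followed by CCAAT at position -106, a share of 3.85% beside 1.39% and 1.40%. Paired heat shock element units, GAANNTTC and TTCNNGAA, were found for 0 of the 26 genes, beside 8.21% and 9.46% of all genes and 6.52% and 8.28% of tested genes. A match describes letters in the window and not a bound site, and the motifs may overlap each other.

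The first comparison set siRNA against control, over both lines and within each. No member passed the test over both lines, within T24, within UM-UC-3 or in the difference between the lines, where 0.0% of the 13265 tested genes passed in each of these 4 comparisons (limma with Benjamini-Hochberg adjustment, threshold 0.05). HSF1 itself therefore did not pass either. Its fitted difference was -1.96 ± 0.26 (SE, log2(CPM + 1)) over both lines (limma, adjusted p = 0.424). In T24 it was -2.26 ± 0.34 (adjusted p = 0.160). Unadjusted p-values under 0.05 were given to 1313 genes over both lines, 1608 in T24, 404 in UM-UC-3 and 622 in the difference, and edgeR also passed 0 genes in each, whereas DESeq2 passed 87, 322, 3 and 39 genes, with 0 members among them. In T24 without its siRNA-2 library, limma passed 447 genes and 3 members, EBP, STARD4 and FASN. Without its siRNA-1 library it passed 75 genes and 0 members. Each of these sets 1 siRNA library against 1 control, which are assumed to vary like the UM-UC-3 siRNA libraries.

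With siRNA-1, 18 members were above the control in T24, where 56.9% of all tested genes were, and 22 were above it in UM-UC-3, where 54.5% were. With siRNA-2, 6 members were above the control in T24 (52.0% of all tested genes) and 9 in UM-UC-3 (54.9%). These counts and shares are of unscaled CPM, and TMM factors lower every siRNA library against its control. With them SQLE, LSS, SC5D, ACACA and ELOVL6 fall below the T24 control with siRNA-1. With siRNA-2, FASN in T24 and MVK, SREBF2 and STARD4 in UM-UC-3 fall below theirs. Only PMVK was higher than the control in all 4 siRNA libraries, as 18.8% of tested genes were, and only EBP was lower in all 4, as 12.2% were. After TMM scaling of the libraries STARD4 and SREBF2 were also lower in all 4. By at least 1.5-fold with both siRNAs, T24 had 1 member higher (PMVK, 10.3% of all genes) and 4 lower (HMGCS1, FDPS, STARD4 and SCD, 10.9% of all genes). UM-UC-3 had 0 members higher by that measure (7.43% of all genes) and 1 lower (EBP, 3.1% of all genes).

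**Figure D1:**
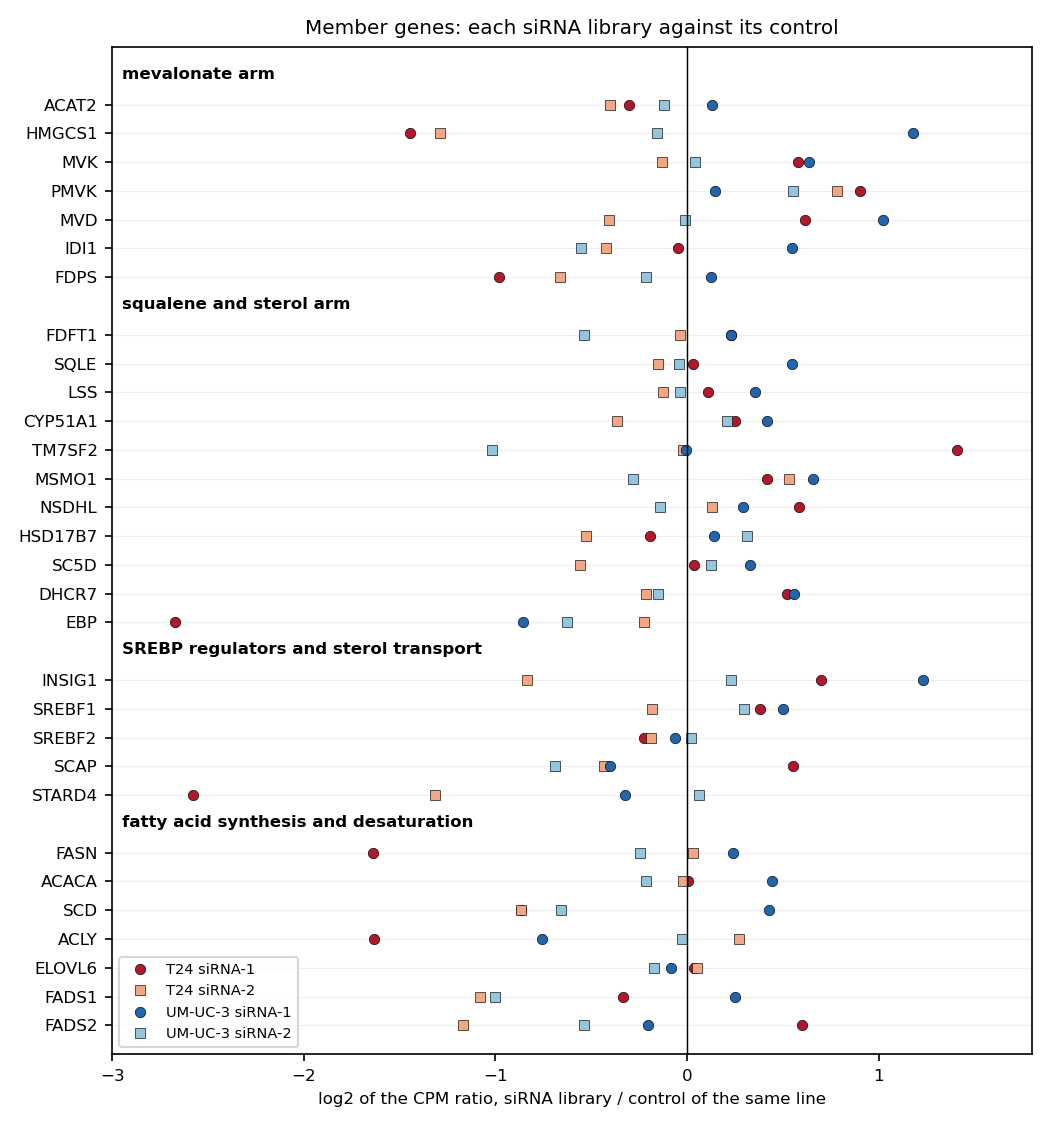
Each row is a member gene, grouped by arm, and each point is an siRNA library, placed on the horizontal axis by the log2 of its CPM divided by that of the control of its line (circles siRNA-1, squares siRNA-2, red tones T24, blue tones UM-UC-3, 1 library per point, no error bars). Most circles lie to the right of the squares of the same line, the PMVK points all lie above 0 and the EBP points all lie below 0.

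In the mevalonate arm, HMGCS1, which makes HMG-CoA, had the widest difference between the lines in its siRNA effect. It stood at 409, 150 and 168 CPM in the T24 libraries and at 93.3, 211 and 83.6 CPM in those of UM-UC-3. Both siRNA libraries of T24 were below the control, whereas in UM-UC-3 siRNA-1 was 2.26 times the control and siRNA-2 0.896 times. The fitted difference was -1.36 ± 0.53 (SE, log2(CPM + 1)) in T24 (adjusted p = 0.388) and 0.51 ± 0.53 in UM-UC-3 (adjusted p = 1), and the difference between the lines was -1.87 ± 0.75 (adjusted p = 0.948). The UM-UC-3 value turned to -0.16 without the siRNA-1 library. Over both lines the value was -0.43 ± 0.47 (adjusted p = 0.780), and it turned to 0.51 without the T24 control.

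PMVK, the phosphomevalonate kinase, stood at 22.1, 41.2 and 38.0 CPM in the T24 libraries and at 17.0, 18.8 and 24.9 CPM in those of UM-UC-3. All 4 siRNA libraries were above their control, from 1.11 times (95% counting interval 0.973 to 1.26) with siRNA-1 in UM-UC-3 to 1.87 times with siRNA-1 in T24. Its fitted difference was 0.57 ± 0.26 over both lines (adjusted p = 0.507) and 0.81 ± 0.35 in T24 (adjusted p = 0.420). These intervals, here and below, are exact binomial ones and cover counting error only.

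FDPS, which makes farnesyl diphosphate, stood at 113, 57.4 and 71.5 CPM in the T24 libraries and at 36.6, 40.0 and 31.5 CPM in those of UM-UC-3. Both siRNA libraries were below the control in T24 (-0.81 ± 0.33, adjusted p = 0.406), while those of UM-UC-3 lay on either side of it. FDPS has 8 annotated pseudogene copies, so its reads may be divided or left out by the counting. ACAT2, the cytosolic acetoacetyl-CoA thiolase, ranged from 109 to 143 CPM in T24, with the control highest, and from 77.4 to 92.1 CPM in those of UM-UC-3. It overlaps TCP1 and SOD2 on the other strand, and the sources used here do not say whether the counting used strand.

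MVK, MVD and IDI1, which carry mevalonate to the interconverting isoprenoid building blocks, were lower with siRNA-2 than with siRNA-1 in both lines. MVK stood at 66.1, 98.8 and 60.3 CPM in the T24 libraries and at 43.6, 67.9 and 44.8 CPM in those of UM-UC-3. MVD, the decarboxylase, stood at 307, 471 and 232 CPM in the T24 libraries and at 19.6, 39.8 and 19.5 CPM in those of UM-UC-3. IDI1, the isomerase, stood at 142, 138 and 106 CPM in the T24 libraries and at 86.0, 126 and 58.7 CPM in those of UM-UC-3. In both lines siRNA-1 was the highest library for MVK and MVD, and siRNA-2 the lowest for IDI1. MVK overlaps MMAB on the other strand. Summed over the 7 genes, the arm took 1204, 1072 and 784 CPM in the T24 libraries and 380, 595 and 340 CPM in those of UM-UC-3.

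In the squalene and sterol arm, EBP, a sterol isomerase, was below the control in every siRNA library. It stood at 88.9, 14.0 and 76.0 CPM in the T24 libraries and at 37.5, 20.7 and 24.2 CPM in those of UM-UC-3. The T24 siRNA-1 library, with 386 EBP reads against 2108 in the control, was at 0.157 times the control (interval 0.141 to 0.175), and the other 3 siRNA libraries were at 0.552 to 0.855 times. The fitted difference was -1.06 ± 0.55 over both lines (adjusted p = 0.563), -0.72 ± 0.86 in UM-UC-3 (adjusted p = 1) and -1.41 ± 0.86 in T24 (adjusted p = 0.540). The T24 value was -2.59 when its siRNA-2 library was left out (adjusted p = 0.0208).

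DHCR7, a late sterol reductase, stood at 411, 591 and 355 CPM in the T24 libraries and at 299, 441 and 269 CPM in those of UM-UC-3. TM7SF2, another sterol reductase, stood at 19.3, 51.2 and 19.0 CPM in the T24 libraries and at 4.68, 4.66 and 2.32 CPM in those of UM-UC-3, where it had 117, 127 and 66 reads. NSDHL, a sterol dehydrogenase, stood at 81.4, 122 and 89.0 CPM in the T24 libraries and at 73.0, 89.3 and 66.3 CPM in those of UM-UC-3. For DHCR7 and NSDHL siRNA-1 was the highest library of both lines. TM7SF2 overlaps VPS51 on the same strand.

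FDFT1, squalene synthase, stood at 279, 327 and 272 CPM in the T24 libraries and at 268, 315 and 185 CPM in those of UM-UC-3. SQLE, squalene epoxidase, stood at 306, 312 and 275 CPM in the T24 libraries and at 198, 290 and 193 CPM in those of UM-UC-3. LSS, which closes the rings to lanosterol, stood at 328, 354 and 301 CPM in the T24 libraries and at 109, 139 and 106 CPM in those of UM-UC-3. In CPM, all of these early steps had the same order in both lines, siRNA-1 highest, then the control, then siRNA-2. Some of these gaps were small. With siRNA-1, SQLE was at 1.02 times the control in T24 (interval 0.989 to 1.05). With siRNA-2, FDFT1 was at 0.975 times in T24 (0.943 to 1.01). In UM-UC-3, SQLE was then at 0.971 times (0.934 to 1.01) and LSS at 0.975 times (0.925 to 1.03). TMM factors, 0.978 for the T24 control and 1.09 for T24 siRNA-1, lower siRNA-1 against the control. That is more than the T24 excess with siRNA-1 of SQLE and of LSS (1.08 times the control), though not of FDFT1 (1.17 times). In T24 the order of SQLE and LSS therefore holds in unscaled CPM only.

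MSMO1, a sterol methyl oxidase, stood at 171, 227 and 247 CPM in the T24 libraries and at 143, 225 and 117 CPM in those of UM-UC-3. CYP51A1, the lanosterol demethylase, stood at 19.1, 22.8 and 14.8 CPM in the T24 libraries and at 4.56, 6.08 and 5.26 CPM in those of UM-UC-3. SC5D, a sterol desaturase, stood at 133, 136 and 90.1 CPM in the T24 libraries and at 99.8, 125 and 109 CPM in those of UM-UC-3. The siRNA-1 library was above the control in both lines for all of these, and the siRNA-2 library was not on the same side in both lines for any of them. For SC5D in T24 the siRNA-1 ratio was 1.03 (interval 0.979 to 1.08). For CYP51A1 in UM-UC-3 the siRNA-2 ratio was 1.15 (0.898 to 1.485). HSD17B7, a sterol ketoreductase, stood at 54.2, 47.3 and 37.6 CPM in the T24 libraries and at 11.4, 12.5 and 14.1 CPM in those of UM-UC-3, below the control with both siRNAs in T24 and above it with both in UM-UC-3 (difference between the lines -0.57 ± 0.48, adjusted p = 0.95). CYP51A1 and HSD17B7 have pseudogene copies. The arm summed to 1890, 2205 and 1776 CPM in the T24 libraries and to 1248, 1669 and 1091 CPM in those of UM-UC-3.

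Among the regulators and carriers, INSIG1 stood at 377, 613 and 212 CPM in the T24 libraries and at 71.1, 167 and 83.3 CPM in those of UM-UC-3. It was above the control with siRNA-1 in both lines, at 1.63 times in T24 and 2.35 times in UM-UC-3, while siRNA-2 was at 0.561 times the control in T24 and 1.17 times in UM-UC-3. The fitted difference within UM-UC-3 was 0.72 ± 0.68 (adjusted p = 1). SREBF1 stood at 154, 201 and 136 CPM in the T24 libraries and at 92.3, 131 and 113 CPM in those of UM-UC-3. SREBF2 stood at 296, 253 and 260 CPM in the T24 libraries and at 331, 317 and 336 CPM in those of UM-UC-3, so the transcript of this regulator stayed within 253 to 336 CPM over all 6 libraries. SREBF1 hosts MIR33B and SREBF2 hosts MIR33A, and SREBF2 overlaps SREBF2-AS1.

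SCAP stood at 84.0, 123 and 62.3 CPM in the T24 libraries and at 89.3, 67.7 and 55.3 CPM in those of UM-UC-3. It was lower with both siRNAs in UM-UC-3 (-0.54 ± 0.45, adjusted p = 1) and lay on either side of the control in T24. STARD4, which carries cholesterol between membranes, stood at 440, 73.6 and 177 CPM in the T24 libraries and at 57.7, 46.1 and 60.2 CPM in those of UM-UC-3. With siRNA-1 it was at 0.167 times the T24 control and with siRNA-2 at 0.401 times, while the UM-UC-3 libraries were at 0.80 and 1.04 times theirs. The fitted difference was -1.94 ± 0.53 in T24 (adjusted p = 0.287) and -1.03 ± 0.46 over both lines (adjusted p = 0.506), the latter -0.13 without the T24 control, and that between the lines was -1.81 ± 0.74 (adjusted p = 0.948). Without the T24 siRNA-2 library the T24 value was -2.56 (adjusted p = 0.0195). STARD4 overlaps STARD4-AS1 on the other strand.

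In the fatty acid arm, ACLY, which makes cytosolic acetyl-CoA from citrate, stood at 736, 237 and 887 CPM in the T24 libraries and at 345, 204 and 339 CPM in those of UM-UC-3. It was lowest with siRNA-1 in both lines, at 0.322 and 0.592 times the control, while siRNA-2 was at 1.21 and 0.982 times. FASN, fatty acid synthase, stood at 1566, 503 and 1597 CPM in the T24 libraries and at 509, 601 and 429 CPM in those of UM-UC-3. Only the T24 siRNA-1 library lay far from its control, at 0.321 times, and in UM-UC-3 siRNA-1 was the highest library. The fitted difference over both lines was -0.54 ± 0.47 for ACLY (adjusted p = 0.722). For FASN it was -0.40 ± 0.43 (adjusted p = 0.775), or 0.01 without the T24 siRNA-1 library. The difference between the lines was -0.80 ± 0.91 for FASN (adjusted p = 0.956), or 0.03 without that library.

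SCD, which desaturates stearoyl-CoA, stood at 1312, 720 and 719 CPM in the T24 libraries and at 1163, 1565 and 737 CPM in those of UM-UC-3. Both siRNA libraries of T24 were below the control, whereas in UM-UC-3 only siRNA-2 was. The fitted difference was -0.87 ± 0.45 in T24 (adjusted p = 0.474) and -0.49 ± 0.32 over both lines (adjusted p = 0.631). FADS1, the delta-5 desaturase of long polyunsaturated fatty acids, stood at 250, 199 and 118 CPM in the T24 libraries and at 197, 235 and 98.5 CPM in those of UM-UC-3. It was lowest with siRNA-2 in both lines, at 0.473 and 0.50 times the control (-0.54 ± 0.37 over both lines, adjusted p = 0.648). FADS2, the delta-6 desaturase, stood at 29.3, 44.3 and 13.0 CPM in the T24 libraries and at 25.1, 21.9 and 17.3 CPM in those of UM-UC-3. FADS1 and FADS2 overlap on opposite strands.

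ACACA, acetyl-CoA carboxylase, stood at 237, 238 and 233 CPM in the T24 libraries and at 186, 252 and 160 CPM in those of UM-UC-3, within 233 to 238 CPM in T24. ELOVL6, which elongates palmitate, stood at 81.8, 84.0 and 84.9 CPM in the T24 libraries and at 193, 182 and 171 CPM in those of UM-UC-3, close to its control in every library of T24. The arm summed to 4212, 2024 and 3652 CPM in the T24 libraries and to 2618, 3061 and 1953 CPM in those of UM-UC-3. The low T24 siRNA-1 sum comes from FASN, ACLY and SCD, which hold most of the reads of the arm. In that library VIM (295, 96.9 and 187 CPM in the T24 control, siRNA-1 and siRNA-2 libraries) and PPARG (16.1, 5.75 and 13.8 CPM) were lowest too. ZEB1 (22.6, 8.76 and 16.2 CPM) and KRT7 (7.63, 1.92 and 5.12 CPM) were also lowest there. In contrast, CDH2 (77.4, 37.7 and 30.9 CPM), KRT8 (795, 719 and 492 CPM) and KRT18 (327, 335 and 285 CPM) were lowest with siRNA-2. The summed mesenchymal list was 395, 143 and 234 CPM, the summed epithelial list 1131, 1056 and 782 CPM, and the summed urothelial list 17.0, 6.12 and 14.3 CPM with UPK3A at 0 in all, and their part in the result was not tested.

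**Figure D2:**
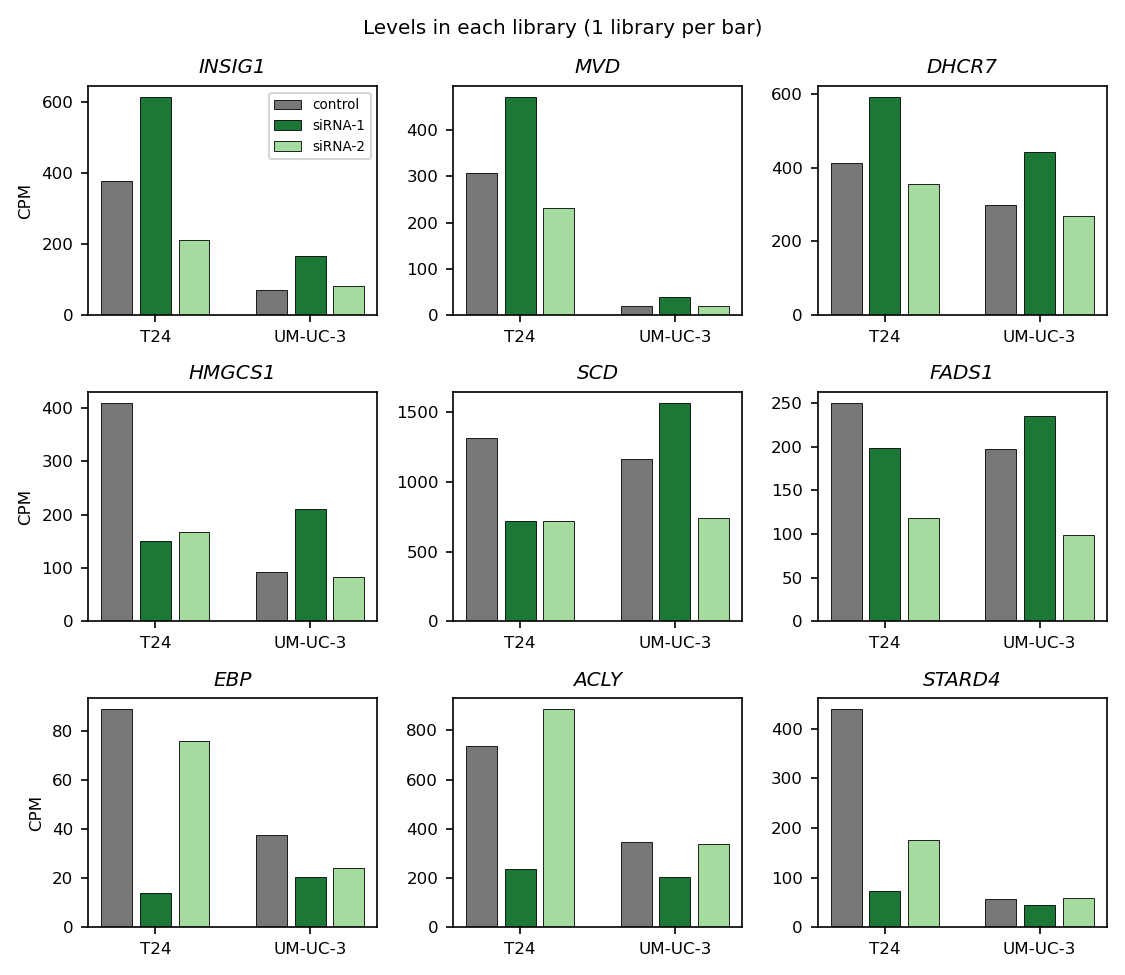
Bars give the CPM of 9 member genes in each library (grey control, dark green siRNA-1, light green siRNA-2, T24 left and UM-UC-3 right in each panel, 1 library per bar and so no error bars, each panel with its own axis from 0). INSIG1, MVD and DHCR7 in the top row peak with siRNA-1 in both lines, and EBP and ACLY in the bottom row are lowest with siRNA-1 in both lines.

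The second comparison set siRNA-2 against siRNA-1, reagents that were each used in both lines. Most sterol genes were lower with siRNA-2 than with siRNA-1. The rule of being lower in both lines was chosen after the values were seen. Of the 30 members, 19 were lower with siRNA-2 in both lines, beside 34.1% of all tested genes, and 4 were higher in both (EBP, SREBF2, STARD4 and ACLY), beside 28.5%. These counts are of unscaled CPM. With TMM factors the T24 ratios of ACAT2 (0.936), ACACA (0.981) and SCD (0.999) rise above 1, so fewer members are lower in both lines. At no more than 0.8 times the siRNA-1 level in both lines there were 9 members (MVK, MVD, IDI1, TM7SF2, NSDHL, DHCR7, INSIG1, FADS1 and FADS2), beside 11.7% of all genes, a limit also chosen after the values were seen. Within a line, 21 members were lower with siRNA-2 in T24 and 24 in UM-UC-3, with medians of -0.25 and -0.41 on the log2(CPM + 1) scale, beside 7651 and 6353 of the 13265 tested genes, with medians of -0.10 and 0.02.

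In the fit over both lines 24 members were below 0 with a median of -0.39, beside 7228 of all 13265 tested genes with a median of -0.04. By arm, 6 of 7 mevalonate genes, 10 of 11 squalene and sterol genes, 3 of 5 regulators and carriers and 5 of 7 fatty acid genes were below 0. After TMM scaling 8 members were above 0, with a median of -0.34 over the members beside 0.004 over all tested genes. No member passed the test, in which 37 genes, 0.279% of those tested, did (limma), and 10 members had an unadjusted p under 0.05, as 1609 of the 13265 tested genes had. The count of genes passing was 0 in edgeR and 253 in DESeq2, which passed 3 members, ACLY, MVD and INSIG1. The limma count rested on single libraries. Without the T24 control it was 459 and without the UM-UC-3 control 447, each with the members ACLY, EBP, FADS1, MVD and INSIG1. Without the T24 siRNA-1, T24 siRNA-2 or UM-UC-3 siRNA-2 library it was 21, 0 or 87, with 0 members. Without the UM-UC-3 siRNA-1 library it was 475, with ACLY, FADS2, EBP, TM7SF2, STARD4 and FASN.

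INSIG1, whose promoter stands first among the sequences above, had the lowest value, -1.26 ± 0.29 (SE, adjusted p = 0.0925), and its siRNA-2 library was at 0.345 times siRNA-1 in T24 (interval 0.335 to 0.355) and at 0.499 times in UM-UC-3 (0.475 to 0.525). MVD was at 0.492 and 0.490 times, nearly the same ratio in both lines although its level differed widely between them (-1.01 ± 0.26, adjusted p = 0.137). DHCR7 was at 0.60 and 0.611 times (-0.72 ± 0.24, adjusted p = 0.267). FADS1 was at 0.595 and 0.420 times (-0.99 ± 0.26, adjusted p = 0.143). The same direction was seen for TM7SF2 (-1.08 ± 0.36, adjusted p = 0.259), FADS2 (-1.01 ± 0.35, adjusted p = 0.281), IDI1 (-0.73 ± 0.28, adjusted p = 0.332) and MVK (-0.64 ± 0.26, adjusted p = 0.369).

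The opposite direction was seen for ACLY, whose siRNA-2 library was at 3.74 times siRNA-1 in T24 and 1.66 times in UM-UC-3 (1.31 ± 0.30, adjusted p = 0.0912). EBP was at 5.44 and 1.17 times (1.29 ± 0.43, adjusted p = 0.259), and STARD4 at 2.40 and 1.31 times (0.81 ± 0.41, adjusted p = 0.459). FASN was at 3.17 times in T24 and 0.714 times in UM-UC-3 (0.59 ± 0.42, adjusted p = 0.628), and HMGCS1 at 1.12 and 0.396 times (-0.58 ± 0.45, adjusted p = 0.664). The FASN value turned to -0.42 without the T24 siRNA-1 library and to -0.02 without the T24 siRNA-2 library, and the HMGCS1 value turned to 0.44 without the UM-UC-3 siRNA-1 library. Of the regulators, SCAP had a value of -0.63 ± 0.29 (adjusted p = 0.417) and SREBF1 of -0.38 ± 0.26 (adjusted p = 0.614). HSF1 itself was, with siRNA-2, at 1.12 times siRNA-1 in T24 and 0.726 times in UM-UC-3.

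Over the 30 members, the siRNA-2 minus siRNA-1 differences of the lines had a Pearson correlation of 0.477 and a Spearman correlation of 0.337, with the same sign for 23. Over the 13265 tested genes these were 0.417 and 0.391, with the same sign for 8298. These correlations run across genes, which are not independent replicates, and each axis is the difference of 1 pair of libraries.

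**Figure D3:**
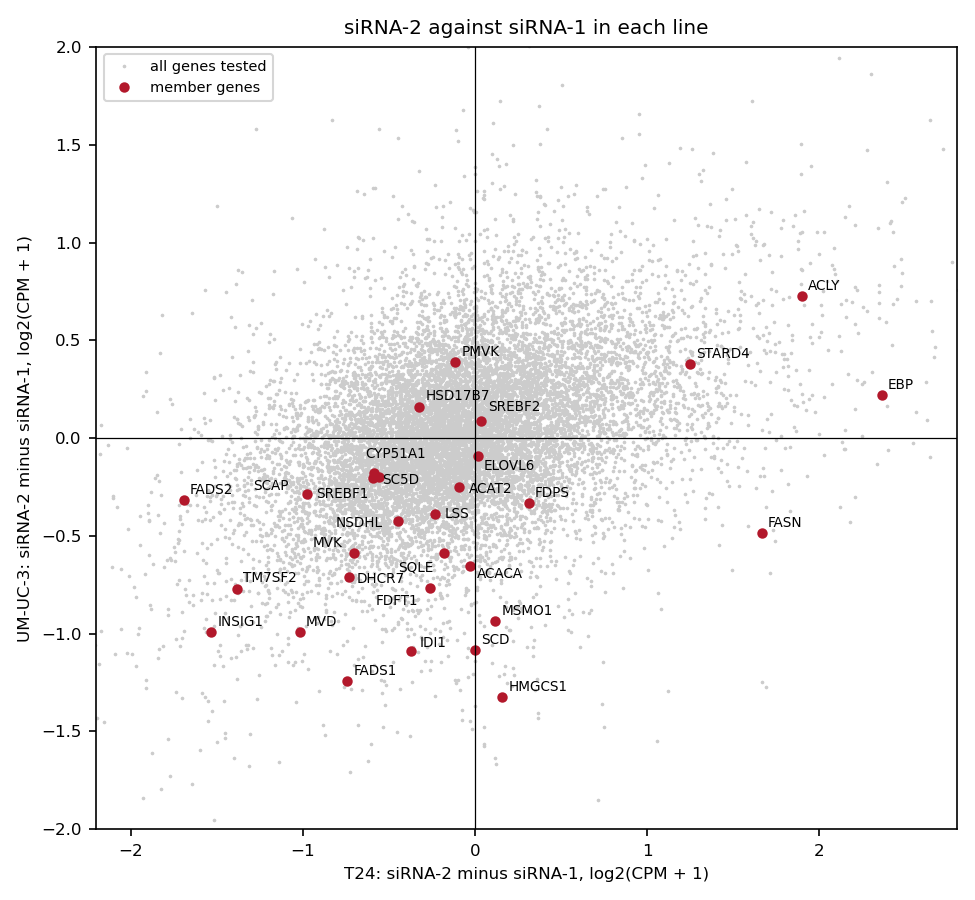
Each point is a gene, placed by the siRNA-2 minus siRNA-1 difference in T24 (horizontal) and in UM-UC-3 (vertical), both in log2(CPM + 1), with the 30 members in red and all tested genes in grey, and the axes limited to the range around the members. The lower left field holds 19 members, INSIG1 and MVD among the farthest, and the upper right holds ACLY, STARD4, EBP and SREBF2.

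The third comparison set T24 against UM-UC-3 over all 6 libraries, with treatment as a term. Of the 30 members, 27 had a positive value, beside 51.8% of all tested genes, with a median of 0.53 beside 0.04. The test passed 9 members, 8 of them higher in T24, in a comparison that passed 39.6% of all tested genes and 21.0% with T24 higher. The 9 passing members are 30% of the set, below the share of all genes, and the 8 higher in T24 are 26.7%, near theirs.

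MVD showed the widest gap, 3.65 ± 0.35 (SE, log2(CPM + 1), adjusted p = 7.55e-05), and its lowest T24 library, 232 CPM, lay far above its highest UM-UC-3 library, 39.8 CPM. TM7SF2 was higher by 2.55 ± 0.42 (adjusted p = 0.00162) and HSD17B7 by 1.78 ± 0.24 (adjusted p = 0.000610). CYP51A1 was higher by 1.65 ± 0.26 (adjusted p = 0.00129) and LSS by 1.47 ± 0.21 (adjusted p = 0.000746). The libraries of the lines did not overlap for any of these genes. The same held for INSIG1, STARD4 and FDPS below, and for members that did not pass, such as ACAT2 and SREBF1. How many of all tested genes also lacked overlap was not counted, so this cannot be read as a trait of the members. INSIG1 was higher by 1.87 ± 0.42 (adjusted p = 0.00815), STARD4 by 1.70 ± 0.43 (adjusted p = 0.0135) and FDPS by 1.09 ± 0.25 (adjusted p = 0.00915). These 3 calls were lost without either control library, where INSIG1 stood at 1.60, STARD4 at 1.10 and FDPS at 0.83.

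ELOVL6 was the only member that passed with UM-UC-3 higher, by -1.11 ± 0.19 in the same direction of subtraction (adjusted p = 0.00229), its T24 libraries at 81.8 to 84.9 CPM and its UM-UC-3 libraries at 171 to 193 CPM. FASN had a value of 1.09 ± 0.40 (adjusted p = 0.0614), which passed without the T24 siRNA-1 library (1.64, adjusted p = 0.000387), as ACLY and EBP then did. HMGCS1 had 0.88 ± 0.44 (adjusted p = 0.144) and passed without the UM-UC-3 siRNA-1 library (1.43, adjusted p = 0.0154). SREBF1 had 0.54 ± 0.23 (adjusted p = 0.0931) and passed without the T24 siRNA-2 library (0.72, adjusted p = 0.0329). SREBF2 had -0.28 ± 0.19 (adjusted p = 0.260).

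**Figure D4:**
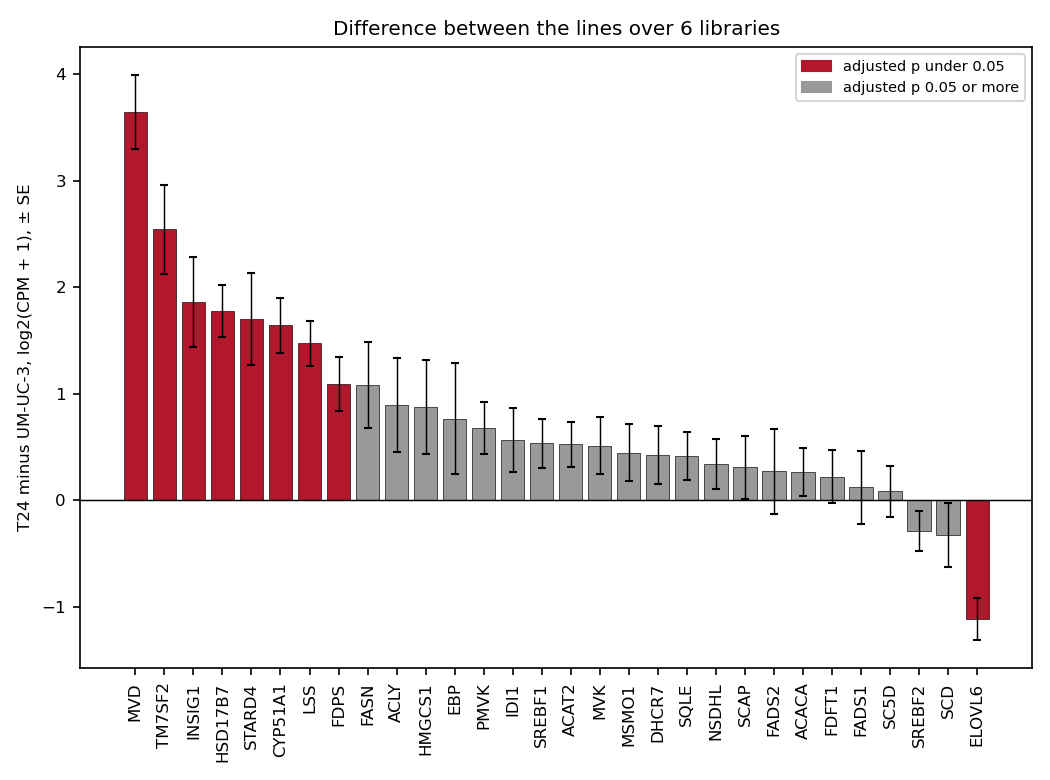
Bars give the T24 minus UM-UC-3 difference of each member over the 6 libraries in log2(CPM + 1), with whiskers of 1 SE, ordered from highest to lowest, and red bars where the adjusted p was under 0.05. MVD stands highest at 3.65, and ELOVL6, at -1.11, is the only red bar below 0.

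Per kilobase of annotated exon, which allows levels to be set between genes, SCD was the most abundant member in the control library of both lines, at 245 CPM per kb in T24 and 217 in UM-UC-3. In T24 it was followed by FASN (167 CPM per kb), ACLY (141) and INSIG1 (103), and in UM-UC-3 by DHCR7 (72.0), ACLY (66.2) and FASN (54.4). The lowest were FADS2 in T24 (2.65 CPM per kb) and CYP51A1 in UM-UC-3 (1.27). FADS2 overlaps FEN1, and CYP51A1 other annotated genes, on the same strand, so some of their reads may be left out by the counting. MVD ranked ninth of the members in T24 (65.1 CPM per kb) and 26 of 30 in UM-UC-3 (4.16). With 1 control library per line, these orders have no replicate error.

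Lists of neighbouring pathways were read in the comparison of siRNA with control over both lines, where no gene of any list passed the test. Over all tested genes, 7553 of 13265 were above 0 and the median was 0.06 on the log2(CPM + 1) scale. Of 16 tested genes of fatty acid oxidation, 13 were above 0 with a median of 0.20. HADHB, of the mitochondrial trifunctional protein, stood at 81.2, 186 and 144 CPM in the T24 libraries and at 113, 143 and 163 CPM in those of UM-UC-3 (adjusted p = 0.424). It was above the control in all 4 siRNA libraries, as 18.8% of tested genes were. The genes named from these lists for this comparison were picked among the smallest p-values in it, which favours such agreement. CPT2, which takes part in mitochondrial import of fatty acids, went from 3.29 and 4.56 CPM in the controls to between 5.31 and 10.1 CPM (adjusted p = 0.446).

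Of 15 genes of the isoprenoid branch, which draws on the same farnesyl diphosphate, 13 were above 0 with a median of 0.30. GGPS1, geranylgeranyl diphosphate synthase, stood at 13.4, 20.3 and 17.5 CPM in the T24 libraries and at 27.7, 36.8 and 43.4 CPM in those of UM-UC-3 (adjusted p = 0.536). SREBP processing and sterol sensing had 11 of 13 above 0 with a median of 0.18, with MBTPS2, a protease that cuts SREBPs, at 28.7, 69.2 and 42.8 CPM in the T24 libraries and 59.3, 64.7 and 67.4 CPM in those of UM-UC-3 (adjusted p = 0.568).

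Sterol uptake and movement had 9 of 16 above 0 with a median of 0.17. LIPA, the lysosomal acid lipase that frees cholesterol from its esters, stood at 73.8, 168 and 112 CPM in the T24 libraries and at 76.3, 117 and 143 CPM in those of UM-UC-3 (adjusted p = 0.424). TMEM97, an endoplasmic reticulum protein that binds NPC1, stood at 126, 77.4 and 81.0 CPM in the T24 libraries and at 115, 80.8 and 56.6 CPM in those of UM-UC-3 (adjusted p = 0.424). LIPA was above and TMEM97 below the control in all 4 siRNA libraries, as 18.8% and 12.2% of tested genes were. Both were picked for a small p in this comparison, so this agreement adds no support.

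Other sterol synthesis genes had 1 of 5 above 0 with a median of -0.36. Liver X receptors and sterol efflux had 5 of 8 with a median of 0.27, other fatty acid synthesis, elongation and activation 10 of 21 with -0.01, glycerolipid and lipid droplet genes 12 of 17 with 0.12, and AMPK and lipid kinase control 5 of 12 with -0.02. Between the siRNAs, 1 gene of these lists passed, the glycerolipid gene AGPAT1, which makes phosphatidic acid and is named here because it passed. It stood at 24, 55.3 and 11.6 CPM in the T24 libraries and at 22.1, 35.6 and 12.4 CPM in those of UM-UC-3, and its siRNA-2 minus siRNA-1 value was -1.80 ± 0.30 (adjusted p = 0.0445 in limma, with no gene passing in edgeR or after TMM scaling). The call was lost without the T24 siRNA-1 library (-1.50, adjusted p = 0.267) or the T24 siRNA-2 library (-1.58, adjusted p = 0.420).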

How the data were processed

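RNA-seq libraries of T24 and UM-UC-3 cells were analysed from gene tables deposited by the authors. The submitters' processing notes list HISAT2 2.1.0, bcl2fastq 2.19.1 and HTSeq 0.6.1 together with the hg19 and GRCh37 builds, with no role for any. Expression was deposited as CPM, which the authors had computed, per the file headers. Dividing by the CPM of 1 read gave whole reads, or 0.5 where the count was 0, for 100% of values in every library (tolerance 0.01). Tables were joined by Ensembl ID. A value missing from 1 table of a line was set to 0 (3410 values in T24, 4104 in UM-UC-3). Such values were taken to hold at most 4 reads, a bound that was not computed from the data.

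Genes listed in both lines whose mean over the 6 libraries reached 1 CPM were tested with limma 3.58.1 (R 4.3.3) on log2(CPM + 1) with an intensity trend and Benjamini-Hochberg adjustment at 0.05. On this scale a fold change of a low gene is understated. All 6 libraries entered each fit: line plus siRNA or control, 4 group means, or line plus 3 treatments. With 1 control per line, its variation was taken to equal that of siRNA libraries. Ratios of CPM carry 95% exact binomial counting intervals (SciPy 1.17.1). edgeR 4.0.16 and DESeq2 1.42.0 on the recovered reads, TMM scaling, a pseudocount of 0.5, no filter on low values, other fold limits, a replicate block and leaving out each library were alternatives. The fit was tested on simulated data. Exon lengths are the union of exons in GENCODE, and promoters come from RefSeq (GRCh38.p14), joined by gene name and not by coordinates.

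All 30 members are named. From the other lists up to 4 genes each, by the smallest p over both lines, were eligible. The members and lists were chosen with earlier results of these data known.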

Additional observations from a re-analysis of the deposited data

Results flagged for a closer look

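HSD17B7 and ELOVL6 had both siRNA libraries on one side of the control in T24 and on the other side in UM-UC-3. The siRNA effect in T24 minus that in UM-UC-3 was -0.57 (log2(CPM + 1)) for HSD17B7, which was below the control with both siRNAs in T24 and above it in UM-UC-3. For ELOVL6 it was 0.17, with both siRNAs above the control in T24 and below it in UM-UC-3, but the T24 ratios of 1.03 and 1.04 had 95% counting intervals that include 1 (0.966 to 1.09 and 0.977 to 1.10). The test of the difference itself did not pass for either (limma, adjusted p = 0.95 for HSD17B7 and 0.980 for ELOVL6), and each line had 1 control library.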

How the results depend on the processing

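With 1 control library per line, the spread behind tests within a line or of the difference between lines comes from pairs of siRNA libraries. The other fits share effects between the lines, so their spread also holds departures from those shared effects, controls included. The siRNA reagent and replicate cannot be told apart. Genes called for siRNA against control over both lines were 0 in limma and 87 in DESeq2. Within T24 they were 0 in limma, 2 with no filter on low values and 322 in DESeq2, and from 0 to 447 when each library was left out, with 0 to 3 members called. Within UM-UC-3 DESeq2 called 3 genes and in the difference between the lines 39. For siRNA-2 against siRNA-1, calls were 37 in limma, 0 with no filter on low values, 0 after TMM scaling, 0 in edgeR and 253 in DESeq2, and from 0 to 475 when each library was left out. Members called there were 0 in limma, 3 in DESeq2 and 0 to 6 when each library was left out. The cause of these differences was not tested.

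Members lower in all 4 siRNA libraries were 1, or 3 after TMM scaling. In T24, members higher with both siRNAs were 2 under the looser fold limit tried and 0 at 2-fold (20.6% and 2.74% of all genes), and those lower were 5 and 2 (17.2% and 5.19%). In UM-UC-3, members lower were 2 under the looser limit and 0 at 2-fold (9.27% and 0.701%). Members lower with siRNA-2 than siRNA-1 in both lines were 19, or 9 at no more than 0.8 times, an alternative chosen after seeing the data. With TMM factors the 19 lose ACAT2, ACACA and SCD. Some values turned sign when a library was left out. Over both lines HMGCS1 ran from -1.36 to 0.51 and FASN from -0.80 to 0.01. HMGCS1 in UM-UC-3 ran from -0.16 to 1.17 and FASN in the difference between the lines from -1.63 to 0.03. For siRNA-2 against siRNA-1, FASN ran from -0.42 to 1.60, with -0.02 without T24 siRNA-2, and HMGCS1 from -1.61 to 0.44.

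Same-numbered siRNA libraries of the lines deviated together (r = 0.417 over 13265 genes), but with 2 pairs they share only the number of the siRNA. With the replicate block 0 genes were called over both lines, and in the comparison of the lines FASN (1.09, adjusted p = 0.0205), ACLY and PMVK were called in addition, of which DESeq2 also called FASN and PMVK.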
